A study of Mus musculus with 2 samples.

Results

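The genes described here are the axon guidance ligands and receptors of the mouse. They are the 66 of the 32285 genes in the count tables whose symbol begins with Sema, Plxn, Robo, Epha, Ephb, Efna or Efnb and a further letter or digit, or is *Nrp1*, *Nrp2*, *Slit1*, *Slit2*, *Slit3*, *Ntn1*, *Dcc* or Unc5 with a letter. Of the genes with such beginnings 4 were left out, the antisense transcripts *Plxna4os1*, *Plxna4os2* and *Plxna4os3*, and *Unc5cl*, which has more than 1 letter after Unc5. Of the 66 members, 32 encode ligands and 34 encode receptors. The levels were measured by single-cell RNA sequencing (scRNA-seq) in 2 libraries, replicates 1 and 2 of a single group. That group was striatum of untreated adult mice, 8 to 10 weeks old by the labels, whose strain is given as C57/Bl6J in one label field and as C57BL/6NTac in another. The labels name no transgene or genetic change and call the cells glia enriched, and the protocol passed the digested tissue through a fine filter and removed myelin, a preparation that samples mostly non-neuronal cells. Nothing in the labels says whether the 2 libraries came from separate mice. The p-values given here rest on the spread between these 2 libraries, pooled over genes, and not on a spread among mice.

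Guidance molecules are best known from the developing nervous system, where growing axons and migrating cells read them as signals to approach or to turn away. Semaphorins signal through plexins, with neuropilins as co-receptors for most of the secreted class 3 semaphorins, Slits signal through Robo receptors, netrin-1 through *Dcc* and the Unc5 receptors, and ephrins through Eph receptors on a touching cell. Many of these genes stay in use in the adult brain, at synapses, in myelinating cells and their precursors, in blood vessels, where ephrin-B2 and *Ephb4* mark arteries and veins, and in the stream of new neurons that leaves the subventricular zone beside the striatum.

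The 2 libraries held 6978 and 5437 barcodes with 44597660 and 37982720 UMIs (unique molecular identifiers, each counting 1 captured mRNA molecule), at medians of 3852 and 5375 UMIs per barcode, and 9 barcode sequences occurred in both. After filtering, 11995 cells remained, and 11191 of them fell into 9 classes named from marker genes, with the suffix -like because the names were rebuilt from the counts. These were astrocyte-like (2318 cells), oligodendrocyte-like (1674), oligodendrocyte precursor cell (OPC)-like (643), microglia-like (2142), macrophage-like (171), endothelial-like (1405), mural-like (556, pericytes and smooth muscle of the vessel wall), neuron-like (644) and neuroblast-like cells (1638). The members were kept out of the genes used for clustering, so that no member defined a class. In each class the listed markers of its name were all raised. Counts were summed per library and class (470218 to 14294525 UMIs per sum) and are given as CPM (UMIs of a gene after scaling each sum to 1 common total) in library 1 and then library 2. A sum cannot tell fewer cells carrying a gene from less RNA per cell, and the reads come from the 3′ ends of transcripts, so levels were compared between classes and not between genes. An unnamed cluster of 708 cells with a median of 22.4% mitochondrial UMIs and 96 erythroid-like cells stayed outside the classes.

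Nearly every member differed among the cell classes, as most genes did, and the members were raised most often in neurons. Of the 65 members with enough counts to test, 64 (98.5%) differed among the 9 classes at an adjusted p under 0.05 (edgeR quasi-likelihood test on the class sums with the library as a block, Benjamini-Hochberg adjustment over all 15271 genes tested), against 97.1% of all genes tested, so the count itself sets the members apart little. The exception was *Sema3b* (adjusted p = 0.15), and *Epha1*, with 41 UMIs over the named classes, was not tested. A stricter call, higher in 1 class than in each of the other 8 in pairwise tests at an adjusted p under 0.05, was met by 40 members (61.5%) against 43.3% of all genes. These were 22 ligands and 18 receptors. By class, with the share of all genes that met the call there, they were 12 (18.5%, against 6.46%) in neuron-like, 7 (10.8%, against 4.60%) in endothelial-like, 6 (9.23%, against 5.85%) in neuroblast-like and 3 (4.62%, against 2.16%) in OPC-like cells. Nearer to that share were 7 (10.8%, against 8.62%) in oligodendrocyte-like, 3 (4.62%, against 4.71%) in astrocyte-like and 2 (3.08%, against 5.32%) in microglia-like cells, and macrophage-like and mural-like cells had none, against 2.29% and 3.22% of all genes. With each cell thinned to 1000 UMIs the stricter call was met by 24 members, and 22 of the 40 kept it in the same class, while 7 of the 40 could no longer be tested. The share of all genes was not computed after thinning, so counts from thinned cells, here and below, cannot be set against a background. The class of highest level was the same in both libraries for 54 members and differed for the other 12, a count not made over all genes.

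**Figure D1:**
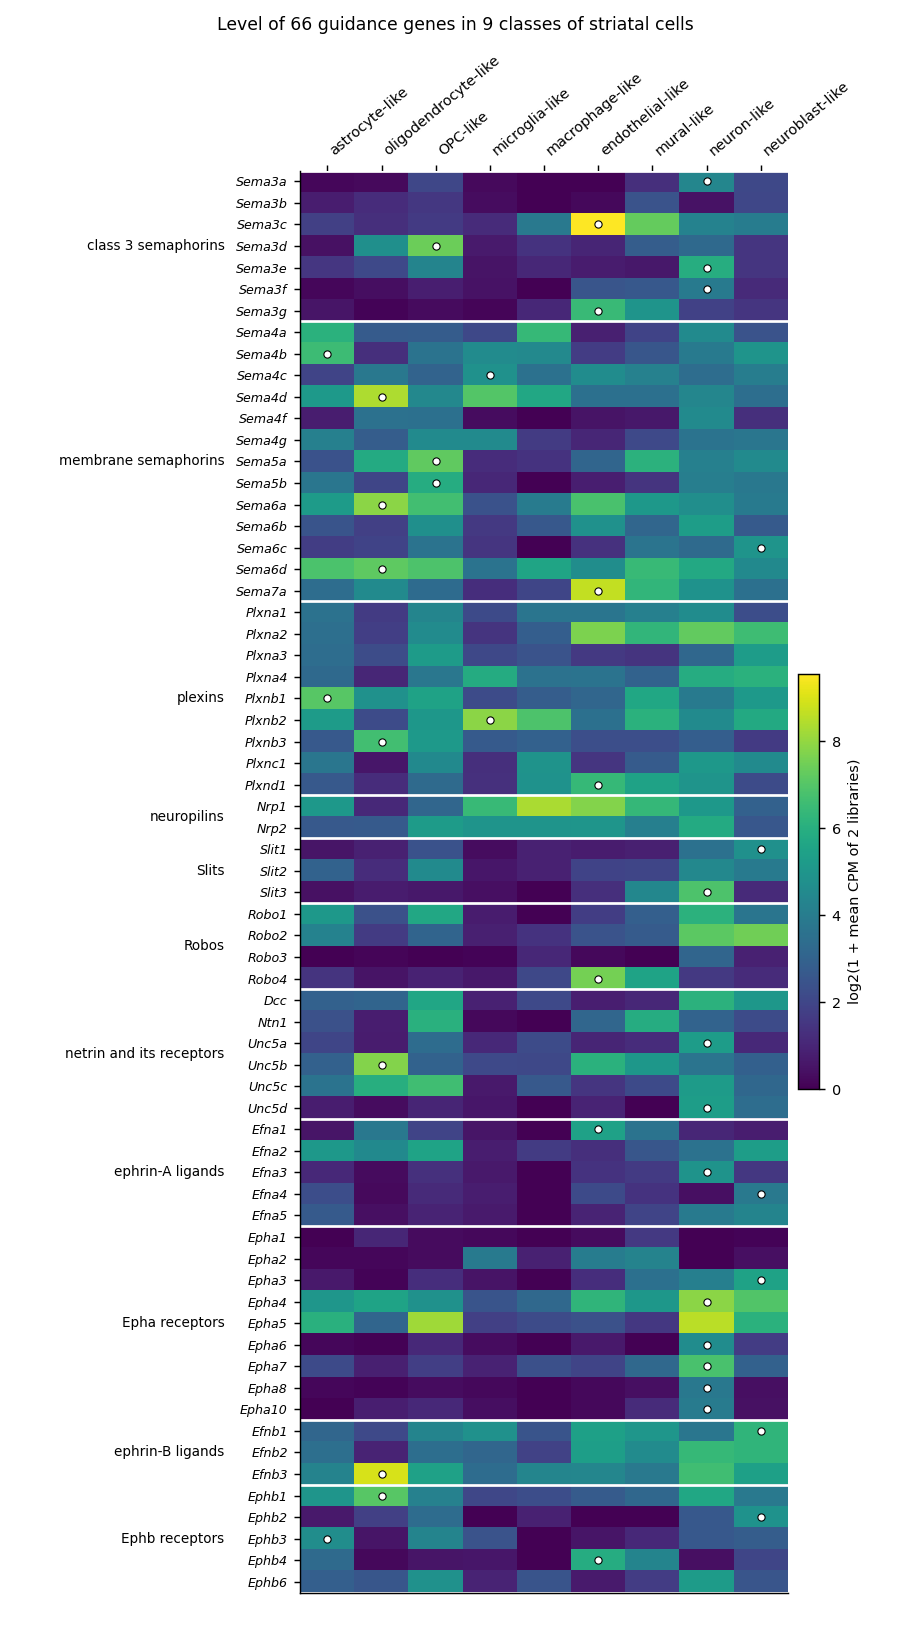
Heat map of the 66 guidance genes (rows, grouped by family) in 9 classes of striatal cells (columns), with colour for log2(1 + CPM averaged over the 2 libraries) and a white point where a gene was higher in 1 class than in each of the other 8. The points lie most often in the neuron-like column (12) and never in the macrophage-like or mural-like columns.

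Each class was next set against the mean of the other 8, with an adjusted p under 0.05 and a change of at least 2-fold as the call. Every member tested was called higher in 1 to 4 classes, namely 7 in 1 class, 23 in 2, 27 in 3 and 8 in 4. The same counts over all genes were not made, so nothing is read from these. They include *Sema3b*, called in mural-like cells on 16 UMIs although it did not differ among the classes above. Neuron-like cells were higher for 37 of 65 members (56.9%), against 19.2% of all 15271 genes tested. In OPC-like cells 24 members (36.9%, against 15.8%) were higher, in neuroblast-like cells 23 members (35.4%, against 15.2%), in endothelial-like cells 19 members (29.2%, against 14.5%) and in mural-like cells 19 members (29.2%, against 15.9%), each percentage of members standing before that of all genes. The share was nearer to the background in astrocyte-like cells with 14 members (21.5%, against 16.6%) and oligodendrocyte-like cells with 13 members (20%, against 16.3%), and at or below it in microglia-like cells with 11 members (16.9%, against 17.2%) and macrophage-like cells with 6 members (9.23%, against 13.6%). The mural-like class held cells that also carried endothelial genes, and its count fell at a finer clustering, as given below. The share of all genes was not computed for that clustering. The median log2 difference of the members was 1.33 in neuron-like cells, where the median of all genes was -0.24, and -1.56 in microglia-like cells, where it was -0.04. Scaling by library sizes in place of TMM factors shifts the median of all genes to values from -0.44 (oligodendrocyte-like) to 0.34 (OPC-like), where TMM gives -0.28 to -0.03, and the differences below are on the TMM scale. At least 1 class had no UMI of the gene in either library for 24 members (21 of them in the macrophage-like class, the smallest), and a fold over the mean of the other classes then depends on the prior count of 2 in the fit, so that the class of second highest level serves as the comparison in what follows.

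Oligodendrocytes, the myelin-forming cells, carried a set of semaphorins, ephrin and receptors above every other class. *Sema4d*, *Sema6a* and *Sema6d* (transmembrane semaphorins), *Efnb3* (a transmembrane ephrin), *Plxnb3* (a plexin that binds *Sema5a*), *Ephb1* (an ephrin-B receptor) and *Unc5b* (a netrin receptor) met the stricter call. For 3 receptors of this set the 250 bases before the annotated start are shown, since these genes share a class of highest level. Capitals mark each match to a core of the SOX motif, ACAAAG or ACAATG on either strand, letters that *Sox10*, a transcription factor of this lineage, can bind. The sequences and coordinates are from RefSeq, GRCm38.p6.
*Plxnb3* (chrX:73756853-73757102, plus strand): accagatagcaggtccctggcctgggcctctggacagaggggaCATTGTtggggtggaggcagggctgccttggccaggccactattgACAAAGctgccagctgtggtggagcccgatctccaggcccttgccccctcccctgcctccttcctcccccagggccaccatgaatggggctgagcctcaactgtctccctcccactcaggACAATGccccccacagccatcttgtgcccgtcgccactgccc
*Ephb1* (chr9:102354694-102354943, minus strand): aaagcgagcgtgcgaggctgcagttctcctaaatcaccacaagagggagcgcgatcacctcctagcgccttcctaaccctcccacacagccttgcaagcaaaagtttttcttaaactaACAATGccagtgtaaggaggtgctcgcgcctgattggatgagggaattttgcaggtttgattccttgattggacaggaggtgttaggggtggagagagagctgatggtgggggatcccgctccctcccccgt
*Unc5b* (chr10:60831582-60831831, minus strand): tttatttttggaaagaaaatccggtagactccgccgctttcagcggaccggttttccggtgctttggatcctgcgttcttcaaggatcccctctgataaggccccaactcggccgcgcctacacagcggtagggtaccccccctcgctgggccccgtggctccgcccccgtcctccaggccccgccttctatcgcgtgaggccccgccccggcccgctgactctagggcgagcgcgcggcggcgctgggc
*Plxnb3* has 3 matches in this window, *Ephb1* has 1 and *Unc5b* has 0. The promoter table held 5 of the 7 members, with 8 promoters among them, and 4 of these 8 hold the motif, as do 25.2% of all 32851 promoters in the table. A match is a description of the letters, not of binding. Promoters were in the table for 56 of the 66 members.

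*Unc5b* (chr10:60762593-60831581, GRCm38) stood at 185 and 249.96 CPM in oligodendrocyte-like cells and at 60.5 and 74.8 CPM in endothelial-like cells, the next class. Both libraries placed oligodendrocyte-like cells far above, a log2 difference of 2.01 ± 0.24 (adjusted p = 2e-06). A UMI of *Unc5b* was found in 79.8% and 87.4% of these cells and in 1.97% and 1.46% of microglia-like cells, which held a median of 16384 and 13469 and of 6930 and 5500 UMIs per cell. After thinning to 1000 UMIs the shares were 17.6% and 22.9% against 0.393% and 0.517%. In endothelial-like cells the shares were 16.8% and 18.5% (6.23% and 7.02% thinned). *Efnb3* (chr11:69554092-69560205) measured 443 and 547 CPM, against 75.6 and 117 CPM in neuron-like cells, a log2 difference of 3.05 ± 0.35 (adjusted p = 8e-07). *Sema4d*, whose receptors are B-type plexins, measured 346 and 312 CPM, and microglia-like cells came next at 103 and 147 CPM. The libraries did not overlap between these classes and the log2 difference was 1.41 ± 0.20 (adjusted p = 1.3e-05). *Plxnb3* lay at 93.6 and 104 CPM and in OPC-like cells at 31.9 and 38.8 CPM, a difference of 2.24 ± 0.20 (adjusted p = 5.8e-08). *Ephb1* ranged from 128 to 142 CPM in oligodendrocyte-like cells and from 48.4 to 51.9 CPM in neuron-like cells, and the difference was 2.11 ± 0.28 (adjusted p = 4.8e-06). *Sema6a* had 221 and 250.03 CPM, above endothelial-like cells at 83 and 139.9 CPM. *Sema6d* was the least firm of the 7, with 100.1 and 185 CPM here and 106 and 125 CPM in OPC-like cells. Its log2 difference was 1.04 ± 0.18 (adjusted p = 8.2e-05). Library 1 alone gave 0.68, and scaling by library sizes alone gave 0.25 (adjusted p = 0.21).

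The unnamed cluster, in which 5 of 8 oligodendrocyte markers were raised, carried the same genes, with *Unc5b* at 208 and 349 CPM, *Efnb3* at 486 and 507 CPM, *Sema4d* at 241 and 304 CPM and *Sema6a* at 150.1 and 225 CPM. With its 708 cells added to the oligodendrocyte-like class, an alternative chosen after seeing the data, all 40 members kept the stricter call in the same class.

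OPCs, the dividing cells that give rise to oligodendrocytes, had *Sema3d*, *Sema5a* and *Sema5b* above every other class, and none of the receptors. *Sema3d* (chr5:12383385-12588948), a secreted class 3 semaphorin, reached 173 and 160.2 CPM and in oligodendrocyte-like cells 27.5 and 24.7 CPM, a log2 difference of 1.87 ± 0.24 (adjusted p = 3.7e-06). Its UMIs were found in 61.7% and 56.6% of OPC-like cells (18.1% and 14% thinned) and in 0.448% and 0.293% of microglia-like cells, whose depths were similar with medians of 6974.5 and 7258 and 6930 and 5500 UMIs. In oligodendrocyte-like cells, which are deeper, the shares were 21.6% and 18.1% (3.01% and 1.93% thinned). *Sema5b* stood at 62.3 and 55.6 CPM with neuron-like cells next at 18.7 and 12.8 CPM, a difference of 1.76 ± 0.40 (adjusted p = 0.0021), which was -0.01 after thinning. *Sema5a*, the ligand of *Plxnb3*, was 124 and 174 CPM with mural-like cells next at 61.7 and 75.7 CPM. Its difference of 0.80 ± 0.27 (adjusted p = 0.019) lost the call with DESeq2 (adjusted p = 0.2), at the finer clustering (adjusted p = 0.3) and after thinning (adjusted p = 0.29).

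*Ntn1* and *Epha5* were also among the 4 largest rises of OPC-like cells over the mean of the other classes, but another class stood close in level. *Ntn1*, the netrin ligand, stood at 63.3 and 69.3 CPM in OPC-like cells and at 53.2 and 65.7 CPM in mural-like cells, and at 8.95 CPM or less in each other class. *Epha5*, a receptor for A-type ephrins, stood at 287 and 292 CPM in OPC-like cells and at 258 and 489 CPM in neuron-like cells. Neither pair of classes differed past the threshold, with log2 differences of -0.15 ± 0.24 (adjusted p = 0.63) and, for neurons over OPCs, 0.44 ± 0.24 (adjusted p = 0.14).

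OPC-like and oligodendrocyte-like cells were compared directly within the same fit (adjusted p under 0.05 and at least 2-fold). The oligodendrocyte-like class was mixed, and at the finer clustering 272 of its 1674 cells had no name. A cluster of 271 cells without a name there had Bmp4, Fyn and Gpr17 among its leading genes and 5 of 8 oligodendrocyte markers raised. The part of these cells in the differences was not tested. OPC-like cells were higher than oligodendrocyte-like cells for 30 members (46.2%), against 18.8% of all genes, and lower for 11 (16.9%), against 15.3%. The largest differences towards OPC-like cells were *Ntn1* at 5.16 ± 0.29 (adjusted p = 8.4e-10), *Epha5* at 4.40 ± 0.27 (adjusted p = 1e-09) and *Plxnc1*, the *Sema7a* receptor, at 3.90 ± 0.39 (adjusted p = 2.6e-07). In CPM, *Ntn1* went from 63.3 and 69.3 in the precursors to 0.904 and 0.49 in oligodendrocyte-like cells, *Epha5* from 287 and 292 to 7.53 and 7.63, and *Plxnc1* from 14.7 and 29.1 to 0.678 and 0.28. None of these values overlapped between the classes. All 4 A-type plexins, *Plxna1*, *Plxna2*, *Plxna3* and *Plxna4*, receptors for class 6 semaphorins and, with neuropilins, for class 3 semaphorins, were also higher in OPC-like cells, as were *Robo1* and *Dcc*. Towards oligodendrocyte-like cells the largest were *Unc5b* at -5.66 ± 0.34 (adjusted p = 6.8e-10), *Sema4d* at -4.72 ± 0.26 (adjusted p = 3.1e-10) and *Efnb3* at -4.29 ± 0.37 (adjusted p = 3.8e-08). With thinned cells 7 members were called lower in OPC-like cells in place of 11, a count not made over all genes. Of the members called, 73.2% lay on the OPC side, and 81.8% with scaling by library sizes.

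**Figure D2:**
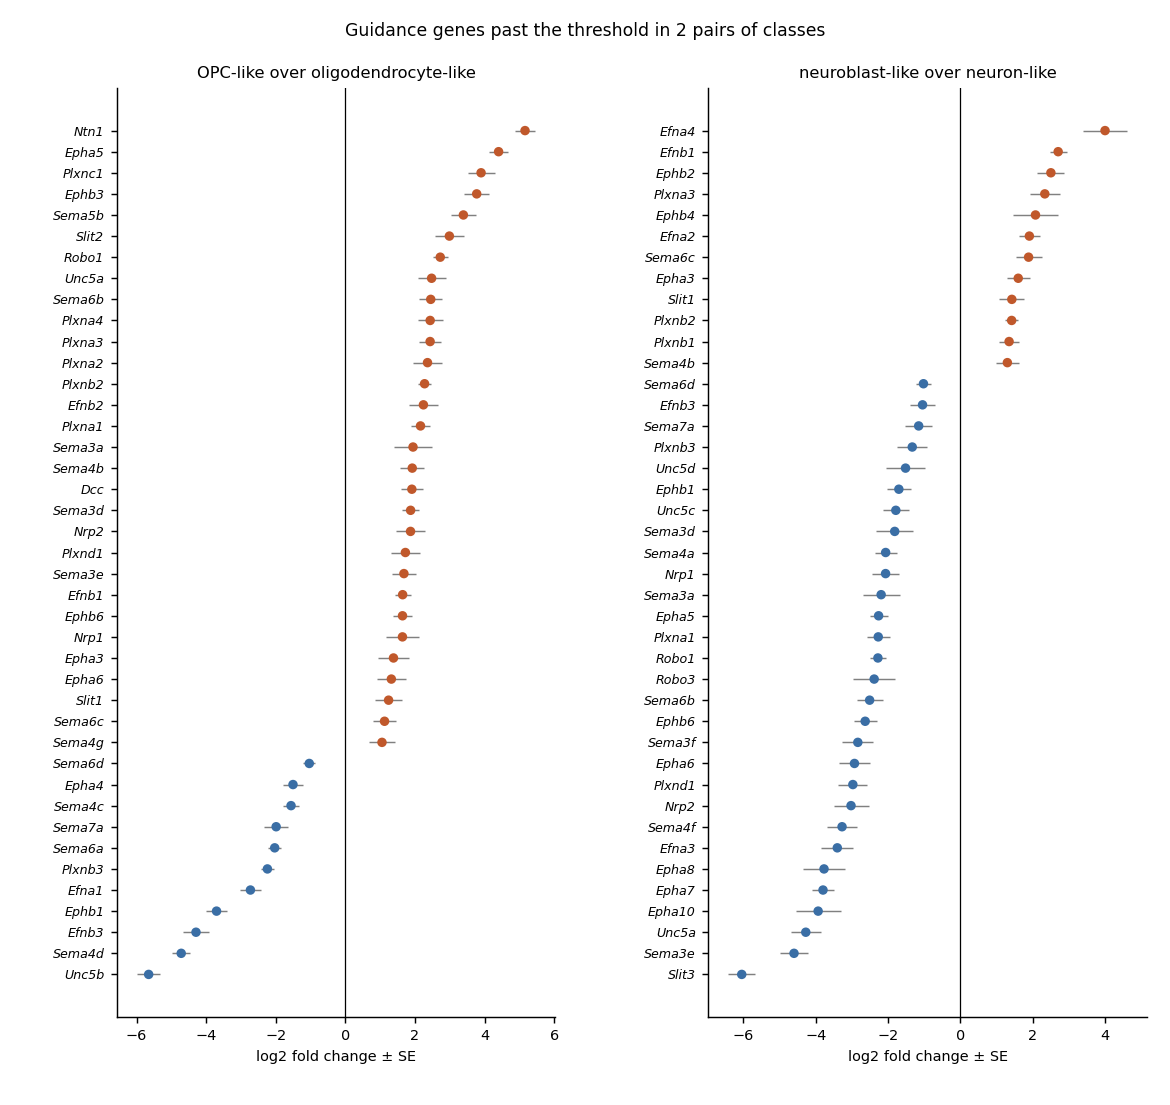
Log2 fold change ± SE (worked back from the test statistic) of the members past the threshold (adjusted p under 0.05, at least 2-fold) between OPC-like and oligodendrocyte-like cells (left) and between neuroblast-like and neuron-like cells (right). Red points are higher in the less mature class, 30 members on the left and 12 on the right, and blue points are lower there, 11 and 29.

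Astrocytes, the class the study is about, had *Sema4b*, *Plxnb1* and *Ephb3* above every other class. *Plxnb1* (chr9:109095389-109119917), a receptor for *Sema4d*, stood at 131 and 135 CPM in astrocyte-like cells and at 48.4 and 53.8 CPM in mural-like cells, a log2 difference of 1.41 ± 0.21 (adjusted p = 2.7e-05). *Sema4b*, a transmembrane semaphorin, measured 87.7 and 96.3 CPM, with neuroblast-like cells next at 31.9 and 28.3 CPM and a difference of 1.64 ± 0.22 (adjusted p = 7.6e-06). The values of neither gene overlapped between those classes. *Sema4a*, also a transmembrane semaphorin, was 60.7 and 74 CPM in astrocyte-like cells and 85 and 80.8 CPM in macrophage-like cells, which the test did not separate (log2 difference 0.50 ± 0.23, adjusted p = 0.096). *Ephb3*, an ephrin-B receptor, had the largest rise of astrocyte-like cells over the mean of the other classes, yet its lead over OPC-like cells was slight, 24.8 and 24.8 CPM against 23.6 and 14.6 CPM, or 0.75 ± 0.29 (adjusted p = 0.049). That lead lost the call with DESeq2, without the block, with library sizes alone and below 20% mitochondrial UMIs, and was -0.04 after thinning and 0.39 in library 1 alone. Its UMIs were found in 7.44% and 9.83% of astrocyte-like and 13% and 9.33% of OPC-like cells, and after thinning in 2.76% and 2.27% and 3.47% and 3.58%, with 1.22% and 0.32% of oligodendrocyte-like cells as background at a far greater depth.

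The study divides striatal astrocytes by *Crym*, the gene for μ-crystallin. By the threshold of its methods, 505 and 437 astrocyte-like cells were *Crym*+ and 826 and 550 were *Crym*-. Of 14 members detected in at least 10% of either group, 1 was higher in *Crym*+ cells (7.14%, against 1.57% of all 6038 genes tested) and 1 was lower (7.14%, against 2.62%), counts too small to set against the background. *Epha5* measured 34.5 and 44.1 CPM in *Crym*+ and 95.9 and 96.9 CPM in *Crym*- cells, a log2 difference of -1.30 ± 0.13 (adjusted p = 2.7e-04). *Robo1*, a Slit receptor, measured 41.3 and 44.1 CPM and 21.7 and 23.8 CPM, a difference of 0.85 ± 0.17 (adjusted p = 0.015). In neither gene did the groups overlap. Without the library block both calls were lost (adjusted p = 0.15 for *Epha5* and 0.53 for *Robo1*). The loss was not particular to these genes, since 2 of all 6038 genes then passed, against 95 higher and 158 lower with the block. DESeq2 passed 44 of all genes. DESeq2 called *Epha5* (adjusted p = 0.004) and gave *Robo1* no adjusted p, and after thinning neither gene was detected in enough cells to test. The other members, the astrocyte genes *Plxnb1*, *Sema4b* and *Ephb3* among them, did not pass the test. *Plxnb1* differed by -0.29 ± 0.11 (adjusted p = 0.15), *Sema4b* by -0.27 ± 0.11 (adjusted p = 0.17) and *Ephb3* by -0.10 ± 0.20 (adjusted p = 0.83), values that do not show equal levels, and in simulated counts this comparison recovered 29% of 2-fold changes. *Crym*+ cells were deeper (medians of 2433 and 5218 UMIs, against 1470 and 1972). A shallow cell can lack a *Crym* UMI by depth alone, and the part of depth in the differences was not tested. With *Crym*+ taken as at least 1 *Crym* UMI, *Epha5* and *Robo1* had the same values, so that alternative is no separate check. Markers of other cells moved with the groups, with ependymal markers summing to 267 and 157 CPM in *Crym*+ and 567 and 522 CPM in *Crym*- cells (6 of 6 found), and oligodendrocyte markers to 1717 and 735 CPM and 3373 and 842 CPM. In the ependymal-like cells of the finer clustering *Epha5* stood at 247 and 152 CPM, and the part of these cells in the difference was not tested.

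Microglia and macrophages, the immune cells of the brain and its borders, had *Plxnb2* and *Sema4c* above every other class in microglia-like cells and no member in macrophage-like cells, counts near the share of all genes given above. *Plxnb2* (chr15:89155549-89180788), a receptor for Sema4 ligands, was 227 and 249 CPM in microglia-like and 117 and 119 CPM in macrophage-like cells, a log2 difference of 1.23 ± 0.16 (adjusted p = 3.7e-05) with no overlap. *Sema4c*, one of the Sema4 ligands, met the stricter call in microglia-like cells by a small margin, 29.4 and 24.8 CPM against 26.4 and 21.1 CPM in endothelial-like cells (0.50 ± 0.19, adjusted p = 0.039). It lost that call with library sizes alone, DESeq2, no gene filter, no block, the finer clustering, doublets kept and thinning (adjusted p from 0.058 to 0.83). *Sema4d* and *Plxna4* were also among the 4 largest rises of microglia-like cells over the mean of the other classes, as was *Epha2*, an ephrin-A receptor, at 19.2 and 9.31 CPM, 13.5 and 16.7 in endothelial-like and 20.2 and 16.9 in mural-like cells. *Epha2* had UMIs in 10.5% and 4.59% of microglia-like cells (2.06% and 0.826% thinned) and in 0.174% and 0.205% of neuroblast-like cells, which are shallower. *Nrp1* (chr8:128358604-128503363), a co-receptor for class 3 semaphorins and for VEGF, was highest in macrophage-like cells at 375 and 268 CPM, followed by endothelial-like cells at 196 and 239.9 CPM and microglia-like cells at 62.4 and 109 CPM. The lead over endothelial-like cells did not pass the test (0.69 ± 0.27, adjusted p = 0.063). UMIs of *Nrp1* were found in 66% and 59.7% of macrophage-like and in 1.36% and 1.39% of oligodendrocyte-like cells, the latter at the greater depth. The shares were 39.9% and 48.8% in endothelial-like cells and 27% and 38.5% in microglia-like cells. *Plxnc1*, the *Sema7a* receptor, measured 23.3 and 34 CPM in macrophage-like and 22.6 and 43.9 CPM in neuron-like cells, and its rise in macrophage-like cells over the mean of the other classes, 2.22 ± 0.40 (adjusted p = 3.4e-04), was lost after thinning (adjusted p = 0.11). With thinned cells the count of members called higher was 7 in microglia-like cells in place of 11 and 3 in macrophage-like cells in place of 6. These counts were not made over all genes, and the macrophage-like class of 94 and 77 cells limits what could be detected.

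**Figure D3:**
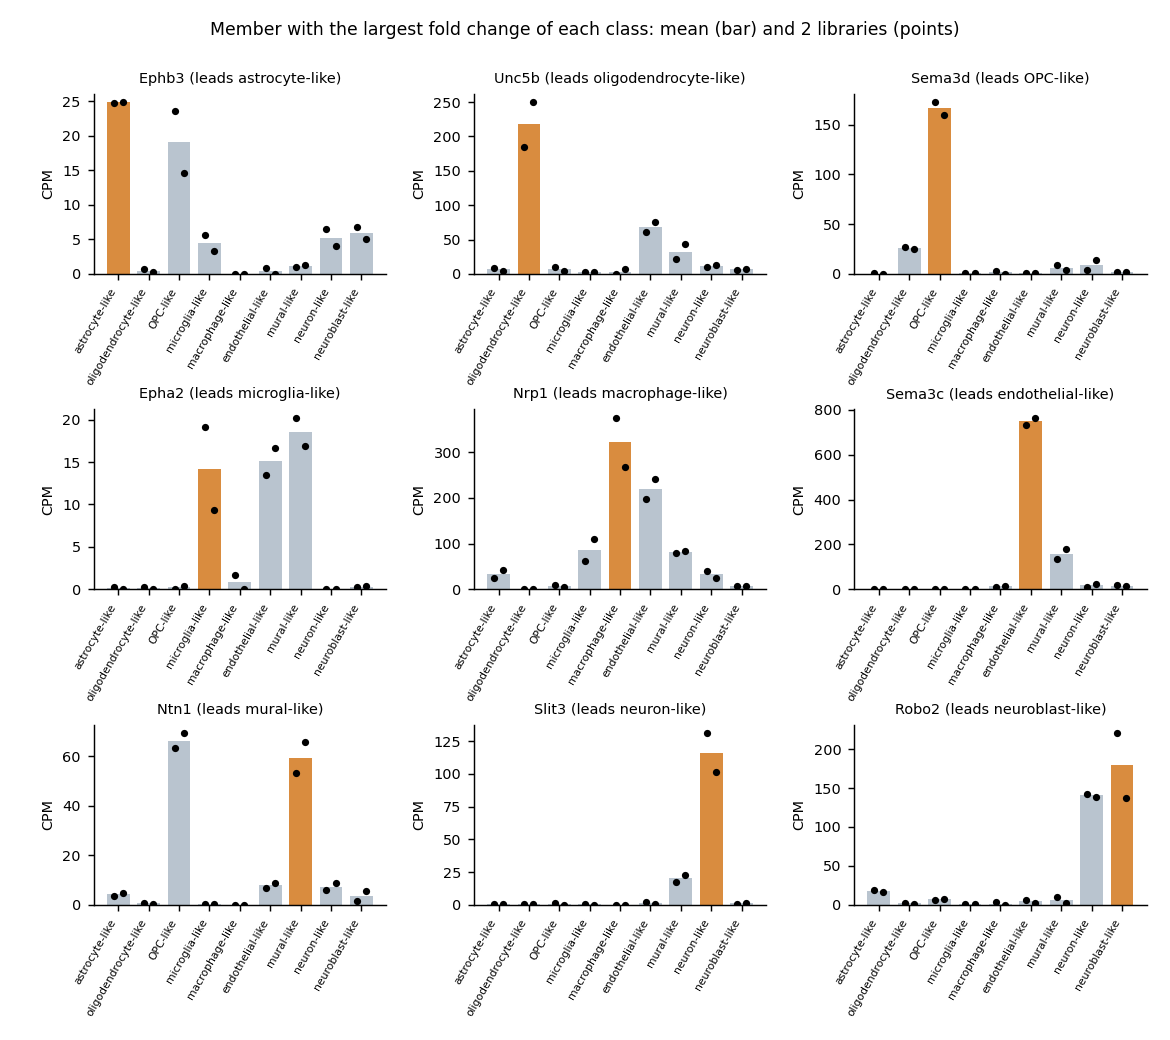
Level in CPM (linear axis from 0) of the member with the largest fold change over the mean of the other classes, 1 panel per class, with the bar as the mean and the points as the 2 libraries. The leading class is in orange, and *Unc5b*, *Sema3d*, *Sema3c* and *Slit3* show 1 tall bar, whereas *Ephb3*, *Epha2*, *Nrp1*, *Ntn1* and *Robo2* have another class close by.

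Endothelial cells, which line the vessels, had 7 members above every other class, 4 ligands and 3 receptors. *Sema3c* (chr5:17574281-17730268), a secreted class 3 semaphorin, stood at 732 and 765 CPM and in mural-like cells at 135 and 178 CPM, a log2 difference of 2.40 ± 0.22 (adjusted p = 4.8e-07). Its UMIs were found in 67.1% and 74.3% of endothelial-like cells (49.2% and 53.1% thinned), and in 0.601% and 0.507% of astrocyte-like cells, at median depths of 2680 and 3248.5 and 1738 and 2786 UMIs. In mural-like cells the shares were 9.94% and 14.8% (3.77% and 6.6% thinned). *Sema7a*, a membrane-anchored semaphorin, measured 439 and 368 CPM against 76.1 and 77.5 CPM in mural-like cells, a difference of 2.52 ± 0.27 (adjusted p = 2.1e-06). *Robo4*, the endothelial Robo receptor, measured 191 and 179 CPM against 48.4 and 43.1 CPM (2.14 ± 0.34, adjusted p = 1.1e-04), and *Sema3g* 92 and 81.7 CPM against 35.7 and 23.1 CPM (1.68 ± 0.38, adjusted p = 0.0028). None of these groups overlapped. *Plxnd1*, the *Sema3e* receptor, *Ephb4*, the receptor for ephrin-B2, and the ligand *Efna1* completed the set with log2 differences of 1.06, 1.74 and 1.33 over the next class. With DESeq2 the leads of *Robo4*, *Sema3g* and *Plxnd1* over mural-like cells did not pass (adjusted p = 0.17, 0.41 and 0.08). Among the promoters of these 7 members, 1 of 8 held GGAAGT, a core of the ETS motif, on either strand, as did 19.7% of all promoters.

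*Sema3c*, *Robo4*, *Sema3g* and *Ntn1* were the 4 largest rises of mural-like cells over the mean of the other classes, and the first 3 are endothelial genes by the values above. The 9 endothelial markers summed to 5301 and 6137 CPM in the mural-like class, against 24143 and 27856 CPM in the endothelial-like class, and none was at 0. At the finer clustering 57 fibroblast-like cells left the mural-like class, as did 66 cells that carried genes of both cell types, with all 9 endothelial markers raised, pericyte genes such as Rgs5, Vtn, Kcnj8 and Abcc9 leading and a median of 15505.5 UMIs. These 66 cells took the endothelial name there, and leaving them out of the classes, an alternative chosen after seeing the data, gave log2 differences of -0.50, -0.09 and 0.44 for *Sema3c*, *Robo4* and *Sema3g*. In the 433 that remained *Sema3c* stood at 2.65 and 9.86 CPM, *Robo4* at 1.77 and 3.29 CPM and *Sema3g* at 0.884 and 3.29 CPM, while *Ntn1* was 54.8 and 58.1 CPM. The log2 differences over the other classes were then -0.49, -0.08 and 0.45 for the first 3, none past the threshold, and 10 members in place of 19 were called higher in mural-like cells. The share of all genes was not computed there, so the rise of the members over the background in the main mural-like class may not hold. *Ntn1* UMIs were found in 23.4% and 26.6% of mural-like cells (5.28% and 6.13% thinned) and in 0.0895% and 0.0976% of microglia-like cells, which are deeper. OPC-like cells, also deeper, had them in 28% and 33.8% of cells (6.25% and 6.87% thinned).

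Subclustering split off arterial-like (105 and 82 cells) and venous-like endothelial cells (68 and 60 cells), each named from markers that are not members. Of 17 members tested, 4 were higher in arterial-like cells (23.5%, against 3.51% of all 6944 genes) and 3 were lower (17.6%, against 2.3%), at an adjusted p under 0.05 and at least 2-fold. *Sema3g* measured 283 and 275 CPM in arterial-like and 0 and 2.09 CPM in venous-like cells (346 UMIs against 1), a ratio of 278 with a 95% counting interval from 49.5 to 11002. The 0 UMIs of library 1 in venous-like cells allow up to 5.81 CPM. *Unc5b* measured 116 and 175 CPM and 3.87 and 2.09 CPM (172 UMIs against 3), a ratio of 46 (15.5 to 225). *Efnb2*, ephrin-B2, measured 79.2 and 121 CPM and 3.87 and 4.19 CPM, a log2 difference of 3.74 ± 0.38 (adjusted p = 2.6e-20). *Efnb1*, an ephrin-B ligand, measured 44.9 and 85.3 CPM and 29 and 29.3 CPM and differed by 1.00 ± 0.31 (adjusted p = 0.014), with 0.57 in library 1 alone and 1.40 in library 2 alone. On the venous side were *Nrp2*, a neuropilin, at 32.9 and 107 CPM against 7.92 and 16.6 CPM (-2.15 ± 0.36, adjusted p = 8e-08), and *Sema6a* at 149 and 191 against 44.9 and 68.6 (-1.56 ± 0.22, adjusted p = 1.3e-10). *Sema6b* stood at 54.2 and 31.4 against 14.5 and 22.9 CPM (-1.15 ± 0.36, adjusted p = 0.014), with -1.71 in library 1 alone and -0.41 in library 2 alone, which is short of 2-fold. *Ephb4*, textbook marker of veins, was 69.7 and 88 CPM in venous-like and 48.9 and 58.2 CPM in arterial-like cells, which did not pass the test (-0.54 ± 0.25, adjusted p = 0.18). *Sema3c*, *Sema7a* and *Robo4* did not pass either, with log2 differences from -0.32 to -0.15. DESeq2 and the fit without the block called 1 member lower in place of 3. Over all genes, in either direction, DESeq2 called 131 and the fit without the block 198, where the main fit called 244 higher and 160 lower. Without the block neither *Nrp2* (adjusted p = 0.079) nor *Sema6b* (0.23) nor *Efnb1* (0.24) passed. With DESeq2 the same 3 members did not pass, *Nrp2* with an adjusted p of 0.062. Erythroid markers summed to 2064 and 3529 CPM in arterial-like and 134 and 10.5 CPM in venous-like cells, and neuroblast markers to 351 and 91.5 CPM and 54.2 and 12.6 CPM. Their part in these differences was not tested.

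**Figure D4:**
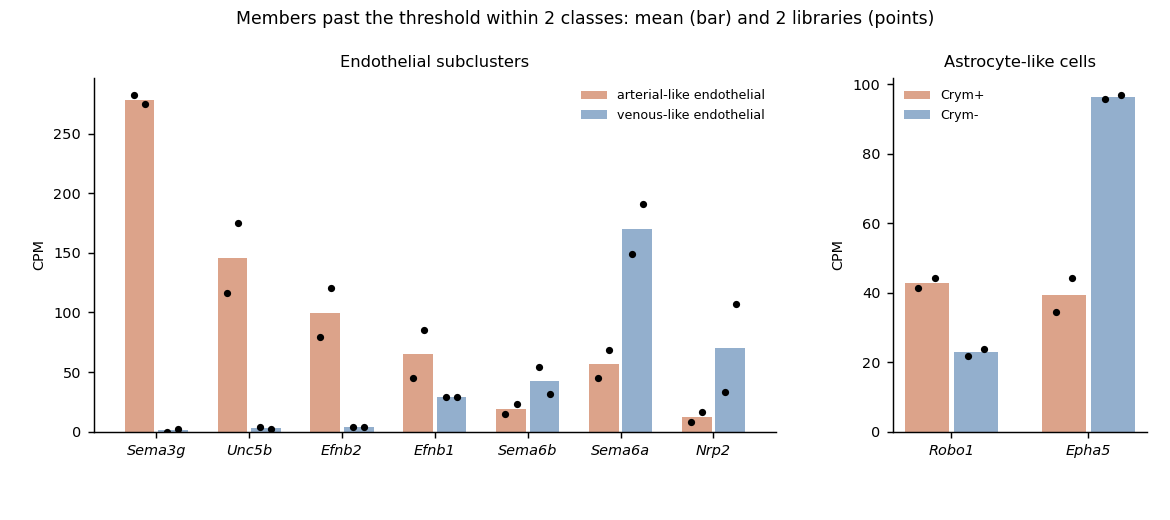
Level in CPM (linear axes from 0) of the members past the threshold between arterial-like and venous-like endothelial cells (left) and between *Crym*+ and *Crym*- astrocyte-like cells (right), with bars for the mean and points for the 2 libraries. *Sema3g*, *Unc5b* and *Efnb2* are near 0 in venous-like cells, and in every pair shown the points of the groups do not overlap.

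Neurons had the broadest set, in a class that was mixed. A subcluster of 232 cells (median 787 UMIs) was led by Cck, C1ql3 and Slc17a7. Another of 73 cells was led by haemoglobin genes, with Slc1a3 and Flt1 among the leading genes. The 67 interneuron-like cells were deeper, with a median of 7303 UMIs. The sums therefore do not stand for striatal neurons in general. The neuron-like class held 23 of the 66 members at their highest level, 8 ligands and 15 receptors, a count not made over all genes. The stricter call was met by 12, the ligands *Sema3a*, *Sema3e*, *Sema3f*, *Slit3* and *Efna3* and the receptors *Unc5a*, *Unc5d*, *Epha4*, *Epha6*, *Epha7*, *Epha8* and *Epha10*. *Slit3* (chr11:35121224-35708507), a secreted ligand of Robo receptors, stood at 131 and 101 CPM, with mural-like cells next at 17.6 and 23.1 CPM and a log2 difference of 2.28 ± 0.30 (adjusted p = 8.3e-06). Its UMIs were found in 29.4% and 28.1% of neuron-like cells (13.4% and 10.1% thinned) and in 0.269% and 0.0976% of microglia-like cells, which are deeper. In mural-like cells the shares were 6.73% and 10.2%. *Sema3e*, the ligand of *Plxnd1*, measured 69.1 and 52.7 CPM and in OPC-like cells 18.8 and 19 CPM (1.73 ± 0.34, adjusted p = 5.2e-04), a lead that missed the threshold after thinning (adjusted p = 0.17). *Sema3a* was 16.8 and 23.2 CPM against 3.71 and 2.73 CPM in neuroblast-like cells, and *Efna3* 25.2 and 32.7 CPM against 1.60 and 2.50 CPM in mural-like cells. In each of these the lower neuronal library lay above both libraries of the next class. *Sema3f* led mural-like cells by 1.18 ± 0.44 (adjusted p = 0.033), and 5 of the alternatives ended that call (adjusted p from 0.051 to 0.43).

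Of the 9 Epha receptors 6 were highest in neuron-like cells, a count not made over all genes. The stricter call was met there by 5 of them, and by 6.46% of all genes. *Epha7* (chr4:28813131-28967499) measured 91.7 and 128 CPM, against 7.45 and 9.38 CPM in mural-like cells, a log2 difference of 3.41 ± 0.33 (adjusted p = 1.8e-07). *Epha6* measured 20.7 and 27.2 CPM, with neuroblast-like cells next at 2.14 and 2.39 CPM (2.93 ± 0.44, adjusted p = 4.8e-05). *Epha8* and *Epha10* rested on few UMIs, *Epha8* with 36 UMIs in neuron-like and 3 in neuroblast-like cells (ratio 42.6, 95% counting interval 13.5 to 216) and *Epha10* at 9.04 and 19.97 CPM in neuron-like cells. *Epha4*, which binds ephrins of both types, was 237 and 231 CPM in neuron-like and 106 and 138 CPM in neuroblast-like cells, a difference of 0.80 ± 0.25 (adjusted p = 0.011). With cells of 20% or more mitochondrial UMIs left out it was -0.01. In that clustering the neuron-like cluster held 1525 cells in place of 644, and the astrocyte-like cluster 1400 in place of 2318. The classes there were thus not the same sets of cells. Among the netrin receptors, *Unc5a* was 36.2 and 39.9 CPM against 9.42 and 9.27 CPM in OPC-like cells (2.05 ± 0.38, adjusted p = 3.3e-04), and *Dcc* was 54.9 and 83.1 CPM in neuron-like, 45.5 and 54.3 in OPC-like and 30.5 and 34.1 in neuroblast-like cells.

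*Unc5d* and *Nrp2* were uneven between the libraries in neuron-like cells, *Unc5d* at 9.69 and 67.1 CPM and *Nrp2* at 22 and 91 CPM. A subcluster of 13 and 24 cells without a name, with *Nrp2* second among its leading genes, held 17 and 44 of the *Nrp2* UMIs, at 684 and 998 CPM. In the 25 and 42 interneuron-like cells *Unc5d* stood at 9.68 and 80.1 CPM, and library 2 was also the higher for both genes in each of the 3 other subclusters, where *Nrp2* ranged from 11.9 to 20.8 CPM in library 1 and from 53.3 to 158 CPM in library 2. The cause of the difference between the libraries was not tested. The lead of *Unc5d* over neuroblast-like cells (1.52 ± 0.53, adjusted p = 0.025) did not pass with DESeq2 (adjusted p = 0.066), and rested on library 2, whose own log2 difference was 2.54 where that of library 1 was -0.04. Over the mean of the other classes *Unc5d* differed by 4.50, and by 2.90 in library 1 alone. Direct-pathway and indirect-pathway projection neurons did not fall into separate subclusters, and no comparison between them was made.

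Neuroblasts, the young neurons of the subventricular zone, had *Sema6c*, *Slit1*, *Efna4*, *Efnb1*, *Epha3* and *Ephb2* above every other class. The class was mixed, and at the finer clustering its 1638 cells became 1067 neuroblast-like, 444 cycling cells without a name and 127 ependymal-like cells. *Robo2* (chr16:73891839-74411825), the Slit receptor, had the largest rise over the mean of the other classes, at 221 and 138 CPM, but neuron-like cells stood at 142 and 139 CPM and the classes overlapped (0.48 ± 0.22, adjusted p = 0.07). Its UMIs were found in 51.3% and 35.5% of neuroblast-like cells (25.1% and 16.9% thinned). In neuron-like cells the shares were 28.1% and 30.4% (13.4% and 11.1% thinned), and in microglia-like cells 0.537% and 0.39%. *Slit1*, a ligand of that receptor, was 28.4 and 24.5 CPM in neuroblast-like and 11 and 10.4 CPM in neuron-like cells (1.42 ± 0.34, adjusted p = 0.002), and *Ephb2* was 27.7 and 28.3 CPM with OPC-like cells next at 8.37 and 10.2 CPM (1.80 ± 0.31, adjusted p = 3.1e-04). *Efnb1*, a ligand of *Ephb2*, measured 67 and 82.1 CPM and in endothelial-like cells 40.5 and 42.7 CPM (0.64 ± 0.17, adjusted p = 0.0048). *Efna4* was 12.7 and 14.7 CPM against 2.78 and 4.87 CPM in astrocyte-like cells, and *Sema6c* 34.2 and 24.5 CPM against 14.9 and 8.75 CPM in mural-like cells. *Epha3* was 38.6 and 49.1 CPM against 8.40 and 24.8 CPM in neuron-like cells (1.60 ± 0.31, adjusted p = 4.2e-04), and this direction did not hold at the finer clustering, where the log2 difference was -0.46 and neuroblast-like cells stood at 7.58 and 17.1 CPM. After thinning, *Efnb1*, *Epha3*, *Sema6c* and *Slit1* did not pass (adjusted p from 0.067 to 0.85).

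Set directly against neuron-like cells, neuroblast-like cells were higher for 12 members (18.5%), close to the 18.9% of all genes, and lower for 29 (44.6%), against 20%. Higher were, first of all, *Efna4* at 4.0 ± 0.60 (adjusted p = 3.5e-05), *Efnb1* at 2.70 ± 0.23 (adjusted p = 5.4e-08) and *Ephb2* at 2.50 ± 0.37 (adjusted p = 6.4e-05) on the log2 scale. Lower were *Slit3* at -6.04 ± 0.37 (adjusted p = 2.4e-09), *Sema3e* at -4.60 ± 0.40 (adjusted p = 5.8e-08) and *Unc5a* at -4.27 ± 0.42 (adjusted p = 2.5e-07). In CPM, *Slit3* stood at 0.713 and 1.70 in neuroblast-like cells, *Sema3e* at 1.85 and 1.70 and *Unc5a* at 1.57 and 0.682, all far below both neuronal libraries. With thinned cells the counts were 7 higher and 19 lower, and they were not made over all genes.

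By family, the stricter call was met by 6 of 7 class 3 semaphorins, 9 of 13 membrane semaphorins, 4 of 9 plexins, 2 of 3 Slits, 1 of 4 Robos, 3 of 6 members of the netrin family, 3 of 5 ephrin-A and 2 of 3 ephrin-B ligands, 6 of 8 Epha receptors tested and 4 of 5 Ephb receptors, and by neither neuropilin. Over all genes 43.3% met that call, and the families are too small to set against that share. The other 25 of the members tested did not meet the call. *Efnb2*, the ligand of *Ephb4*, measured 69.1 and 97.4 CPM in neuron-like, 58.9 and 90.3 in neuroblast-like and 35.7 and 44.3 in endothelial-like cells, and *Efna5*, a ligand of *Epha4* and *Epha7*, 16.1 and 21.1 CPM in neuroblast-like and 12.3 and 16 in neuron-like cells. *Robo1* lay at 52.3 and 86.3 CPM in neuron-like, 43.4 and 59.2 in OPC-like and 31.7 and 35 in astrocyte-like cells, and its ligand *Slit2* at 22 and 23.4 CPM in OPC-like and 9.69 and 31.9 in neuron-like cells. For each of these the first and second class overlapped or did not differ past the threshold (adjusted p from 0.059 to 0.98).

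Among the plexins, receptors of the semaphorins, *Plxna4* was spread over neuroblast-like (75.5 and 60.3 CPM), neuron-like (48.4 and 70.3 CPM) and microglia-like cells (57.8 and 58.8 CPM). *Plxna2* was uneven between the libraries, at 276 and 129 CPM in endothelial-like and 144 and 156 CPM in neuron-like cells, so that endothelial-like cells led in library 1 and neuron-like cells in library 2. *Plxna1* was 14.2 and 34.3 CPM in neuron-like and 16.7 and 21.6 in OPC-like cells, and *Plxna3* was 42.6 and 32.4 CPM in neuroblast-like and 35.6 and 38.4 in OPC-like cells. *Unc5c*, a netrin receptor, was 85.8 and 111 CPM in OPC-like and 63.2 and 63 in oligodendrocyte-like cells. *Sema3b*, *Sema4f*, *Sema4g*, *Sema6b*, *Efna2* and *Ephb6* completed the tested members without a single leading class, with log2 differences between the first 2 classes from -0.03 to 1.01. *Robo3* was at 10.3 CPM or less in every class and was called higher only in neuron-like cells. It had 22 UMIs there and 1 in macrophage-like cells, the next class, a difference that did not pass (2.12 ± 1.09, adjusted p = 0.13).

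Ligands and receptors that are known partners were set side by side by class. Among 25 pairs listed from textbook knowledge, 2 had both partners highest in the same class, *Sema3f* and *Nrp2* in neuron-like cells and *Efnb1* and *Ephb2* in neuroblast-like cells, and the other 23 did not. The class of highest *Nrp2* level differed between the libraries. Both partners kept their class of highest level in both libraries for 15 pairs. In 6 pairs both partners met the stricter call. These were *Sema3e* (neuron-like) with *Plxnd1* (endothelial-like), *Sema4d* (oligodendrocyte-like) with *Plxnb1* (astrocyte-like) and with *Plxnb2* (microglia-like), *Sema5a* (OPC-like) with *Plxnb3* (oligodendrocyte-like), *Efnb3* (oligodendrocyte-like) with *Epha4* (neuron-like), and *Efnb1* with *Ephb2*. The receptor was highest in neuron-like cells in 11 pairs, and the ligand was highest in oligodendrocyte-like cells in 6 and in OPC-like cells in 5. No share for other pairs of genes was computed, so nothing is read from these counts, and RNA levels in dissociated cells do not show that the partners meet.

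**Figure D5:**
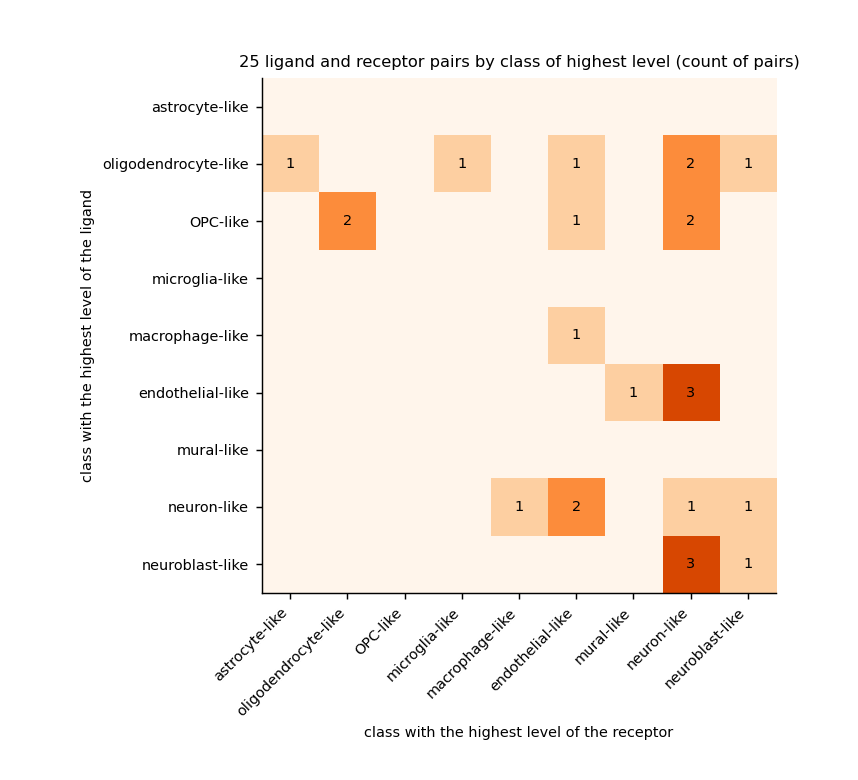
Number of the 25 ligand and receptor pairs by the class in which the ligand is highest (rows) and the class in which the receptor is highest (columns). On the diagonal lie 2 pairs, and the neuron-like column holds 11 pairs.

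Other genes of these pathways were counted from 2 lists. The first list held 32 genes, for proteins that carry a guidance signal to the cytoskeleton and for the membrane adhesion molecules *Nrcam* and *L1cam*. All 32 were tested and differed among classes, as did 97.1% of all genes. Of them 20 (62.5%) were higher in 1 class than in each other class, against 43.3% of all genes. They included *Crmp1*, *Dpysl3* and *Dpysl5*, collapsin response mediators, in neuroblast-like cells, and the kinase gene *Fyn* in oligodendrocyte-like cells. Of the other collapsin response mediators listed, *Dpysl2* met the call in oligodendrocyte-like cells and *Dpysl4* in no class. Against the mean of the other classes, with the share of all genes beside each, 14 (43.8%, against 15.8%) were higher in OPC-like, 13 (40.6%, against 19.2%) in neuron-like, 12 (37.5%, against 16.3%) in oligodendrocyte-like, 11 (34.4%, against 16.6%) in astrocyte-like, 11 (34.4%, against 15.9%) in mural-like, 9 (28.1%, against 15.2%) in neuroblast-like, 7 (21.9%, against 14.5%) in endothelial-like, 5 (15.6%, against 17.2%) in microglia-like and 3 (9.38%, against 13.6%) in macrophage-like cells. Of 19 other cues and receptors 17 were tested, all 17 differed and 13 met the stricter call (76.5%, against 43.3% of all genes). Among them were *Omg* and *Rtn4*, inhibitors of axon growth, in oligodendrocyte-like cells and *Draxin*, a netrin antagonist, in neuroblast-like cells. Of these 17, 10 (58.8%, against 15.8%) were higher in OPC-like and 10 (58.8%, against 19.2%) in neuron-like cells. Their medians were 1.21 and 1.13 on the log2 scale, where the medians of all genes were -0.08 and -0.24. In oligodendrocyte-like cells 6 (35.3%, against 16.3%) were higher, and in neuroblast-like cells 4 (23.5%, against 15.2%). Astrocyte-like and mural-like cells had 3 each (17.6%, against 16.6% and 15.9%). Microglia-like and endothelial-like cells had 1 each (5.88%, against 17.2% and 14.5%), and macrophage-like cells had 0 (against 13.6%).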

How the data were processed

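UMI counts were analysed for the 2 libraries of the single group. Per the labels' processing notes the authors made the deposited counts with Cell Ranger 4.0 on mm10 (the matrix header gives CellRanger 4.0.0), as raw UMI counts per gene and cell with no normalization. Reads were 3′ reads, from kits named as v2 and v3 in the labels without saying which library used which. All else was computed here, and the cell classes were rebuilt, so a difference from the study may come from them.

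Cells with at least 300 detected genes were kept, and 115 and 152 doublets were removed (1.67% and 2.83%, Scrublet in scanpy 1.11.5, expected rate 6%). Seurat 5.3.0 integrated the libraries (2000 variable genes, without the members and *Crym*), used 30 principal components and clustered at resolution 0.08. Subclusters used 20 components and resolution 0.5, and the finer clustering resolution 0.32. A cluster took a name when at least 3 markers were raised 2-fold (10 CPM added) and 1 lay among its 50 leading genes. *Crym*+ meant a natural log value, ln(1 + UMIs per 10000), above 0.25.

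Counts were summed per library and class (at least 20 cells in each), and edgeR 4.0.16 (R 4.3.3) fitted them with TMM factors, the library as a block and a prior count of 2, tested by quasi-likelihood, with Benjamini-Hochberg adjusted p-values taken across every gene in the fit. Since both sides of each comparison in a library share 1 cell suspension, the libraries pair the samples by design. No label says that the libraries came from separate mice, so p-values rest on the spread between these 2 libraries, which may be technical. The fit shares that spread among genes, so a p-value does not measure the spread of a single gene. Between arterial and venous cells *Nrp2* went from an adjusted p of 8e-08 to 0.079 without the block. In tests on simulated counts, 4-fold changes of the neuron-like class were recovered in 96% and 2-fold changes in 33%, with 1 false call (200 of 15271 genes changed, equal numbers by each fold). For arterial against venous cells, with 6944 genes, these were 94%, 20% and 2. Both calls required an estimate of at least 2-fold. A true 2-fold change therefore lay at the cut, and its recovery does not measure power alone. In these simulations the unchanged genes had 1 profile over all groups, the same spread and no library effect. Most genes differed among the real classes, so the simulations cannot show the errors of scaling or the false calls there. Intervals are exact, at 95%, and cover counting error only, as do limits from 0 UMIs (3 counts). Each value after ± is an approximate SE, the absolute log2 difference divided by the square root of its quasi-likelihood F statistic. Shares of cells were also computed after thinning to 1000 UMIs, which left out 1488 cells.

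The members and lists were chosen with earlier results of these data known. Named members are the 4 largest rises per class, every member higher in 1 class than in each other class, the 3 largest changes per direction of each paired comparison, and the members of 25 ligand and receptor pairs. *Efnb1* between arterial and venous cells and members given to complete a family were named after their values were seen. Alternatives were DESeq2 1.42.0, library sizes, no gene filter, no block, the finer clustering, doublets kept, at least 500 genes, under 20% mitochondrial UMIs, thinning, 1 *Crym* UMI, and each library left out (TMM scaling within the other). Alternatives with the unnamed cluster added and with 66 cells of mixed markers left out were chosen after seeing the data. Gene positions are from a GRCm38 annotation (GENCODE). Other assays of the study were not analysed here.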

Additional observations from a re-analysis of the deposited data

Results flagged for a closer look

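The levels of *Epha3*, an ephrin-A receptor, in the fibroblast-like cells of the finer clustering stood above those of every class of the main clustering. No comparison used these 35 and 22 cells as a group of their own, and all 57 lay in the mural-like class of the main clustering. *Epha3* measured 89.4 CPM in library 1 (16 UMIs, 95% counting interval 51.1 to 145) and 79.5 CPM in library 2 (12 UMIs, 41.1 to 139), against at most 49.1 CPM in any class and library. The interval of library 2 reached below that level. *Epha3* was found by a search of all members in the groups of cells outside the class comparisons. The cycling cells that left the neuroblast-like class at the finer clustering were not among those groups. The difference was not tested, and the intervals cover counting error only.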

How the results depend on the processing

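The 96 named values were recomputed 1183 times under the alternatives, of which 1131 counted as kept, 42 missed the threshold and 10 turned. Kept meant direction and side of the threshold, except with a library left out, where only the direction was checked. That was so for 96 kept values without replicate 1 and 95 without replicate 2. The split at 1 *Crym* UMI, with 2 values kept, gave the main values again and is no separate check. Of 221 recomputed counts, 18 moved by over 1.5 times. For the thinned cells the shares of all genes were not computed. After thinning to 1000 UMIs, members higher in 1 class than in each other class went from 40 to 24, microglia-like from 11 to 7, macrophage-like from 6 to 3, mural-like from 19 to 11, members lower in OPC-like than oligodendrocyte-like cells from 11 to 7, and neuroblast-like over neuron-like from 12 to 7 higher and from 29 to 19 lower. At resolution 0.32 the mural-like count was 10, and also 10 with the 66 cells of mixed markers left out. Arterial over venous, 3 lower, became 1 with DESeq2 and 1 with no replicate block. *Crym*+ over *Crym*-, 1 higher, became 2 with library sizes, 0 with DESeq2, which gave *Robo1* no adjusted p, 3 with every gene of at least 1 count, 0 with no replicate block and 0 after thinning, where neither called gene could be tested, and 1 lower became 3 with every gene and 0 with no replicate block. At an unadjusted p under 0.05, edgeR with the block gave 7 of the 14 members tested between *Crym*+ and *Crym*- cells, and 1282 of all 6038 genes. Of all genes, 2 passed at an adjusted p under 0.05 without the block and 44 with DESeq2. Without the block 90 named values kept their call, 6 missed it, and 37 of the 40 members stayed in their class. Among the calls lost without the block, *Ephb3* and *Sema4c* are given above.

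The values that turned, as log2 differences, were Sema3c mural-like over the mean of the other classes (-0.49), Robo4 mural-like over the mean of the other classes (-0.080) and Epha3 neuroblast-like over neuron-like (-0.46) at resolution 0.32, the same with the 66 cells left out (-0.50, -0.089 and -0.46), Epha4 neuron-like over neuroblast-like (-0.011) with cells under 20% mitochondrial UMIs, Ephb3 astrocyte-like over OPC-like (-0.0447) and Sema5b OPC-like over neuron-like (-0.0140) after thinning, and Unc5d neuron-like over neuroblast-like without replicate 2 (-0.041, and 2.54 without replicate 1). Thinning removes counts by construction, the finer clustering took 444 cycling and 127 ependymal-like cells out of the neuroblast-like class and 66 cells of mixed markers and 57 fibroblast-like cells out of the mural-like class, and the causes were not tested. The limit on mitochondrial UMIs also changed the classes, with 1525 neuron-like and 1400 astrocyte-like cells. Leaving out a library leaves folds without a test, and 40 and 39 of the 40 members kept their highest class. The omnibus test could not be run with 1 library, and the direct-pathway and indirect-pathway alternatives were not run. Depth limits the members with the fewest UMIs, and 5 members had under 100 in the named classes.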

Other observations

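The finer clustering set apart ependymal-like cells, which line the ventricle, with 84 cells in library 1 and 65 in library 2. At the main clustering 127 of these 149 cells lay in the neuroblast-like class and 22 in the astrocyte-like class, so their values are part of those classes above. There *Epha5* measured 247 and 152 CPM and *Epha4* 129 and 121 CPM, both receptors of ephrins. *Dcc*, the netrin receptor, measured 58.2 and 43.5 CPM. *Plxnb1* and *Plxnb2*, plexins that bind *Sema4d*, measured 56.6 and 88.8 CPM and 61.3 and 61.6 CPM. No test compared the ependymal-like cells with others.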
